A study of Homo sapiens with 5 samples.

Results

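The clusters of transfer RNA (tRNA) genes described here are 6 windows of the human genome that are defined by position. The windows were chosen with earlier results of these data known. On build hg19 they cover chromosome 6 from 26300 to 26800 kb (the distal window, nearer the end of the short arm) and from 28400 to 28960 kb (the proximal window). The others cover chromosome 1 from 161360 to 161600 kb, chromosome 5 from 180520 to 180650 kb, chromosome 14 from 21070 to 21160 kb and chromosome 16 from 3200 to 3245 kb. Together they span 1565 kb. They held 298 of the 233945 summits on chromosomes 1 to 22 and X in 4 lists of SMAD2 binding. Summits of all lists lying at most 200 bp from the next were chained into regions, which gave 141 regions in the windows out of 115321 in the genome.

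SMAD2 was mapped by chromatin immunoprecipitation and sequencing in T47D, an established human breast cancer line of the luminal, estrogen receptor-positive type. In the first group, 2 libraries came from cells given activin A at 50 ng/ml for 1.5 h. In the second, 2 libraries came from cells given palbociclib, an inhibitor of the kinases CDK4 and CDK6, at 1 µM for 24 h and activin A at 50 ng/ml for 1.5 h. They are called the activin and the palbociclib libraries, and every one of them received activin A. An input library of T47D served the authors as the control for peak calling and is not analysed here. The labels do not say whether replicates were separate cultures, so a p-value measures only the spread between these libraries, which may be technical.

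tRNA genes are short and are transcribed by RNA polymerase III. The factor TFIIIC recognises the A box and B box inside the gene and brings in TFIIIB, which places the polymerase at the start. Human tRNA genes lie in clusters, of which the largest is on the short arm of chromosome 6 near the replication-dependent histone genes. SMAD2 carries the activin and TGF-β signal from the receptor to the nucleus, where it acts with SMAD4 and other DNA-binding factors at genes that RNA polymerase II transcribes.

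The gene order of RefSeq (GRCh38.p14) shows what kinds of gene lie side by side at these loci. Between H4C8 and ZNF322 on chromosome 6 stand 26 tRNA genes for 13 kinds of tRNA, led by arginine and tyrosine with 4 genes each, and 3 of them serve the initiator methionine. In the same stretch lie 8 protein-coding genes, among them the butyrophilin genes BTN3A2, BTN2A1 and BTN1A1, HMGN4, which encodes a nucleosome-binding protein, and ABT1. Between ZSCAN23 and ZNF311 stand 43 tRNA genes, 15 of them for alanine and 6 for phenylalanine, together with GPX6, GPX5, SCAND3 and TRIM27. Between CFAP126 and FCGR3B on chromosome 1 there are 32, with 12 for glycine. There an order of 5 genes (glycine TCC, aspartate GTC, leucine CAG, glycine GCC, glutamate CTC) repeats 4 times in full. The stretch from BTNL9 to TRIM41 on chromosome 5 holds 17, of which 8 are for valine. The stretch from RNASE12 to ANG on chromosome 14 holds 14, of which 5 are for tyrosine. The stretch from ZNF213 to OR1F1 on chromosome 16 holds 11, of which 5 are for proline. The bracketing genes were taken from general knowledge of the loci and were not matched to the window borders. These counts may therefore leave out tRNA genes of a window or include some outside it. The table is on another build than the summits, so no summit was set against a gene, and which summits lie on tRNA genes was not analysed here.

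The windows held more summits per Mb than the rest of the genome in all 4 lists. Activin replicates 1 and 2 listed 74 and 63 summits in them, and palbociclib replicates 1 and 2 listed 93 and 68. Per Mb, this equals 47.3 and 40.3 summits for activin and 59.4 and 43.5 for palbociclib. Over the rest of the genome, counted between the first and last summit of each chromosome, the density was 17.5 and 18.4, and 21.4 and 22.2. Activin lists were thus 2.70 and 2.18 times as dense in the windows as in the rest, and palbociclib lists 2.78 and 1.96 times. The span of the rest includes stretches with no mapped reads, such as centromeres, which lowers its density. The windows are known to hold many genes, and gene density was not set against these values.

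The 3 small windows were the densest. On chromosome 16 the lists held 4, 4, 5 and 4 summits in 45 kb (activin replicates 1 and 2, then palbociclib replicates 1 and 2, an order kept below). On chromosome 14 they held 7, 7, 7 and 5 in 90 kb, and on chromosome 5 they held 12, 8, 12 and 10 in 130 kb. The chromosome 1 window held 9, 5, 9 and 7 summits in 240 kb, and the density there was 1.13 to 2.14 times that of the rest of the genome. The distal window on chromosome 6 held 24, 22, 31 and 22, and the proximal one 18, 17, 29 and 20. The counts of a window are small, so each gives only a coarse density.

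**Figure D1:**
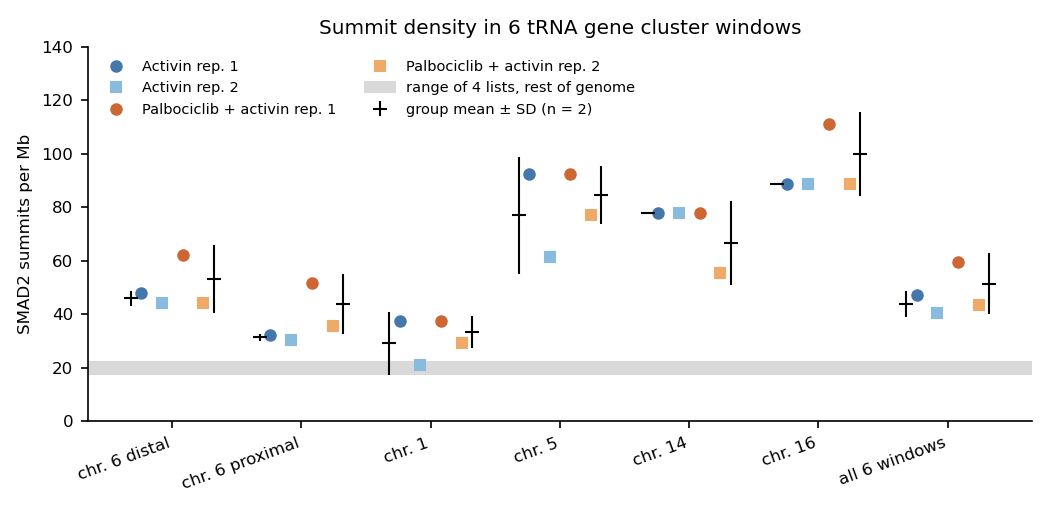
SMAD2 summits per Mb in each window and in all 6 together, with 1 point per library and the group mean ± SD (n = 2) in black. The grey band is the range of the 4 lists over the rest of the genome, and the chromosome 5, 14 and 16 windows lie farthest above it.

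The comparison of treatments asked whether palbociclib changed the number of SMAD2 summits in these clusters, and the groups overlapped. Activin libraries averaged 68.5 ± 7.8 (SD, n = 2) summits and palbociclib libraries 80.5 ± 17.7, 1.18-fold as many. A two-sided exact permutation test, with the library as the unit, gave p = 0.667, where 0.333 is the lowest value it can return in this design. Without palbociclib replicate 1 the log2 difference turned from 0.23 to −0.01. Among the single windows only the proximal one on chromosome 6 kept the groups apart, at 17.5 ± 0.7 and 24.5 ± 6.4 summits. Its exact permutation p was 0.333, and 1 after Benjamini-Hochberg adjustment over 7 counts. As a share of the list, the windows took 0.144% (95% Clopper-Pearson interval 0.113 to 0.180) and 0.116% (0.0893 to 0.149) of the activin summits. They took 0.148% (0.119 to 0.181) and 0.104% (0.0810 to 0.132) of the palbociclib summits. The mean share was 0.130% ± 0.019 with activin and 0.126% ± 0.031 with palbociclib (exact permutation p = 1). The palbociclib lists were longer as a whole, and the intervals cover counting error only.

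Libraries with the replicate number 1 listed more window summits than those numbered 2, in both treatments. The ratio was 1.17 with activin and 1.37 with palbociclib, while the whole lists of replicate 1 were 0.950 and 0.966 times as long as those of replicate 2. Replicate 1 had more summits than replicate 2 in 4 of 6 windows with activin and in 6 of 6 with palbociclib. In the other 2 windows with activin the numbers were equal. The labels give no batch that the replicate number stands for.

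Windows of the same length on either side did not share 1 density. The flanks at lower coordinates held 120 and 127 summits with activin and 155 and 160 with palbociclib, more than the windows themselves. The flanks at higher coordinates held 44 and 47, and 42 and 51, fewer than the windows. At the proximal window, the 560 kb after it held 2, 2, 2 and 1 summits, and the 560 kb before it held 28, 37, 35 and 36. Around the chromosome 5 window the order was the opposite, with 1, 1, 1 and 2 summits before it and 19, 21, 14 and 23 after it, each in 130 kb. Before the distal window lies a stretch known for histone genes, with 61, 59, 76 and 76 summits in 500 kb, and the 500 kb after it held 12, 13, 16 and 17. Both flanks of the chromosome 14 window held 0 summits in all lists, against 5 to 7 in the window.

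Within the chromosome 6 windows the summits were bunched. In the distal window every summit lay in the first 360.04 kb, and the last 100 kb were empty in the 4 lists. In the proximal window the last 160 kb held 14, 17, 22 and 20 summits. The first 400 kb of it held 4 and 7 in the replicate 1 libraries of activin and palbociclib, and 0 and 0 in both replicate 2 libraries. Those 11 summits were weak, with scores of 3.25 to 14.3 and no rank better than 23331. The score is the authors' own value for the summit within its list and is read here as −log10 q. This split by replicate number, rather than by treatment, was singled out after its values were seen.

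**Figure D2:**
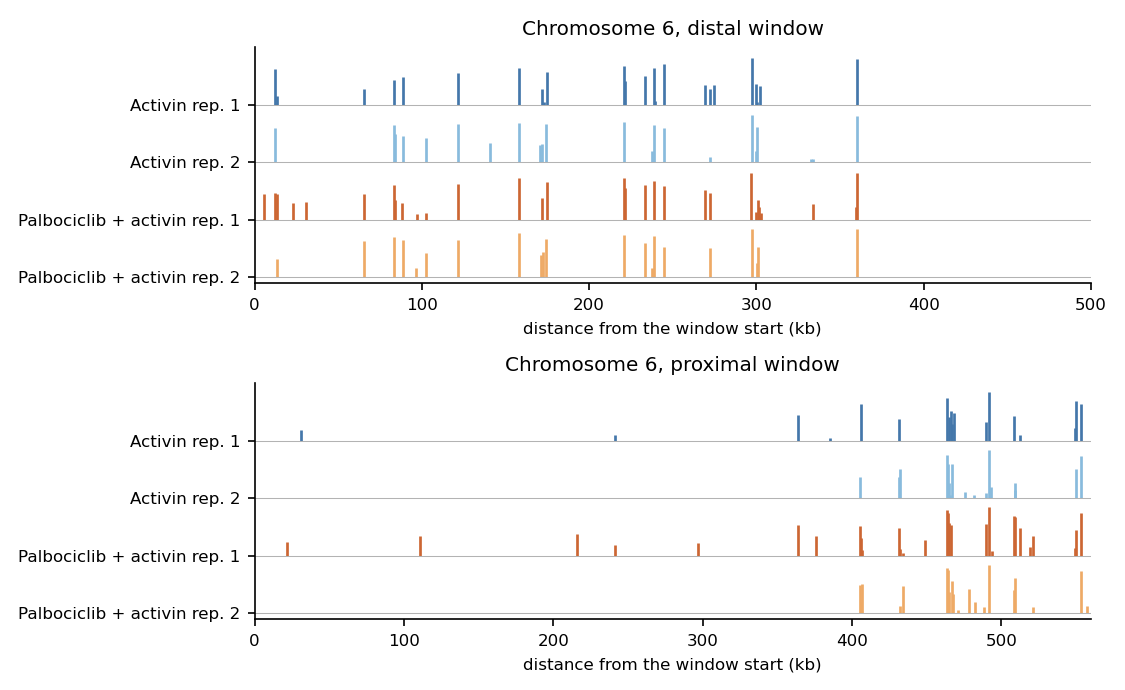
Summits along both chromosome 6 windows by distance from the window start in kb, with 1 row per library. Each line is the strongest summit of a region in that list, and its height falls with its rank from the top (tall) to the bottom of the list (short). The first 400 kb of the proximal window carry lines in the replicate 1 rows only.

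Recurrence over the 4 lists was close to that of the genome. Of the 141 window regions, 29 (20.6%) held a summit in every library, and over all regions this share was 20.4%. A single library accounted for 64 regions (45.4%), against 50.8% in the genome. Another 25 regions (17.7%) were seen in 2 libraries and 23 (16.3%) in 3, against 17.6% and 11.2%. In regions of all 4 libraries the summits spanned a median of 79 bp, and 76 bp in the genome. By library, 39.2% (95% Clopper-Pearson interval 28.0 to 51.2) and 46.0% (33.4 to 59.1) of the activin window summits fell in such regions. For palbociclib these shares were 31.2% (22.0 to 41.6) and 44.1% (32.1 to 56.7). Over the genome they were 46.2% and 43.7%, and 37.6% and 36.5%, each inside the interval of its window share. The intervals take each summit as independent, which neighbouring summits may not be. They cover counting error only and do not show that the shares are equal.

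The windows differed among themselves in recurrence. On chromosome 1, 5 of 10 regions were found in all 4 libraries, and in the distal window 13 of 44 (29.5%). On chromosome 5 it was 5 of 17 and on chromosome 14 it was 2 of 13. The proximal window had 3 of 48 (6.25%), and chromosome 16 had 1 of 9. On chromosome 16 the region at 3199931 to 3200058 counts as found in 3 libraries through 2 activin summits just outside the window. Those summits count for recurrence but not among the window summits. In the proximal window 27 regions (56.2%) came from a single list. These shares rest on few regions, and no test was made over regions, since they are not replicates.

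**Figure D3:**
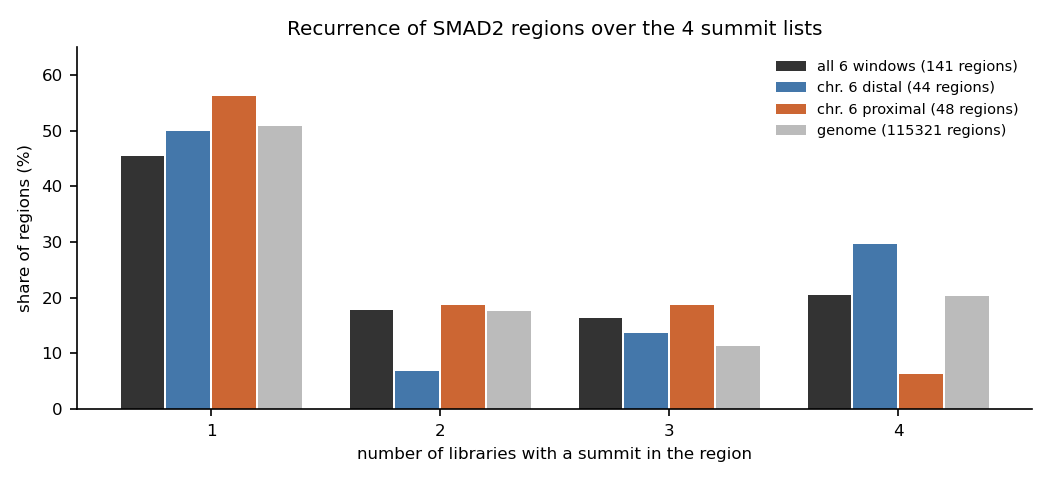
Share of chained regions (%) by the number of libraries with a summit in them, for all 6 windows, the distal and proximal chromosome 6 windows and the genome. The bar for 4 libraries is 20.6% for the windows and 20.4% for the genome, but 29.5% in the distal and 6.25% in the proximal window.

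Few regions followed the treatment. Regions that both palbociclib lists shared and that no activin list held numbered 4 (2.84%), against 5.29% of all regions. The reverse held for 3 regions (2.13%), against 2.22% of all regions. The activin share was close to the background and the palbociclib share lay below it, but both rest on few regions. The palbociclib regions were led by chromosome 1 at 161391913 to 161391952, with ranks of 37650 and 24040 and scores of 7.17 and 12.9. The nearest activin summit lay 6016 bp away. The other palbociclib regions were in the proximal window at 28806743, 28920987 and 28834361, with activin summits 506, 8578 and 2362 bp away. Regions of activin alone lay on chromosome 14 from 21155829 (ranks 18865 and 34924) and at 21151512 (17821 and 47668), and on chromosome 5 at 180648886 (51224 and 42776). The nearest palbociclib summits were 3374, 470 and 599 bp from them. Each of these 7 regions ranked in the lower 50 percent of at least 1 of its lists.

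Among regions seen in 2 libraries, the pair of both replicate 1 libraries was the most frequent. It had 13 window regions (9.22%), against 2.31% of all regions. The pair of both replicate 2 libraries had 2 (1.42%), against 2.72%. Of the 13, 5 lay in the proximal window, 3 in the chromosome 5 window, 2 each in the distal and chromosome 1 windows and 1 on chromosome 16. Their median score was 6.50 in activin replicate 1 and 6.92 in palbociclib replicate 1, and the best rank was 12857 and 15278. This pattern was noticed in the data and has no test.

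The strongest summit of all windows was on chromosome 1 at 161368027 to 161368050. Its ranks were 104 and 125 with activin and 305 and 508 with palbociclib. The scores were 322 and 307, and 342 and 261, and the 4 positions lay within 23 bp. Ranks and scores belong to lists of different length and unknown depth, so the lower palbociclib ranks show neither a change in binding nor its absence. In the region next to it, at 161369058 to 161369129 and 1.01 kb away, the ranks were 14411, 10867, 16079 and 10083. The other regions of all 4 libraries there began at 161360153, 161500892 and 161397964, with worst ranks of 37773 to 47538.

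Leading the proximal window was chromosome 6 at 28891702 to 28891759. It ranked 753 and 542 with activin and 752 and 801 with palbociclib, and the scores were 165 and 195, and 254 and 222. Together with the chromosome 1 summit it made up the window summits among the first 1000 of each list, 2 in every library. Of the other regions found in all 4 libraries, the one at 28863373 to 28863411 had ranks of 6497, 5890, 3966 and 4318. The one at 28953399 to 28953432 had ranks of 13229, 7989, 8303 and 9167. The region at 28864106 to 28864162, found in 3 libraries, ranked 7763 and 7867 with palbociclib and 16120 in activin replicate 2.

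Ranks in the distal window were led by a pair of regions. At 26597044 to 26597148 the summit ranked 2728 and 2383 with activin and 2265 and 1287 with palbociclib, with scores of 95.1 and 104, and 162 and 187. At 26659998 to 26660036 it ranked 3126 and 3108, and 2317 and 1301, with scores of 89.0 and 90.9, and 160 and 187. The latter was also the last summit position of the window in the 4 lists. By worst rank over the lists, the next regions of all 4 libraries began at 26520884, 26458173 and 26538518, and their worst ranks were 11290, 12766 and 13452.

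In the small windows, chromosome 14 at 21150896 to 21151042 stood first, with ranks of 3459, 3617, 6733 and 3074. The other region of all 4 libraries there, at 21152376 to 21152455, ranked 26556, 21716, 19649 and 19030. On chromosome 16 the one region of all 4 libraries, at 3200501 to 3200619, ranked 12857, 18033, 12935 and 10466. Each list had a stronger summit there: the region at 3208713 to 3208862 ranked 9851 in activin replicate 1 and 12491 and 6442 with palbociclib, and activin replicate 2 had a summit of rank 11073 at 3209115. On chromosome 5 the region with the best worst rank, at 180618794 to 180618896, ranked 9087, 11769, 9010 and 11889. The regions beginning at 180611229, 180632100, 180614628 and 180542254 had worst ranks of 14001, 22908, 37270 and 47300.

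**Figure D4:**
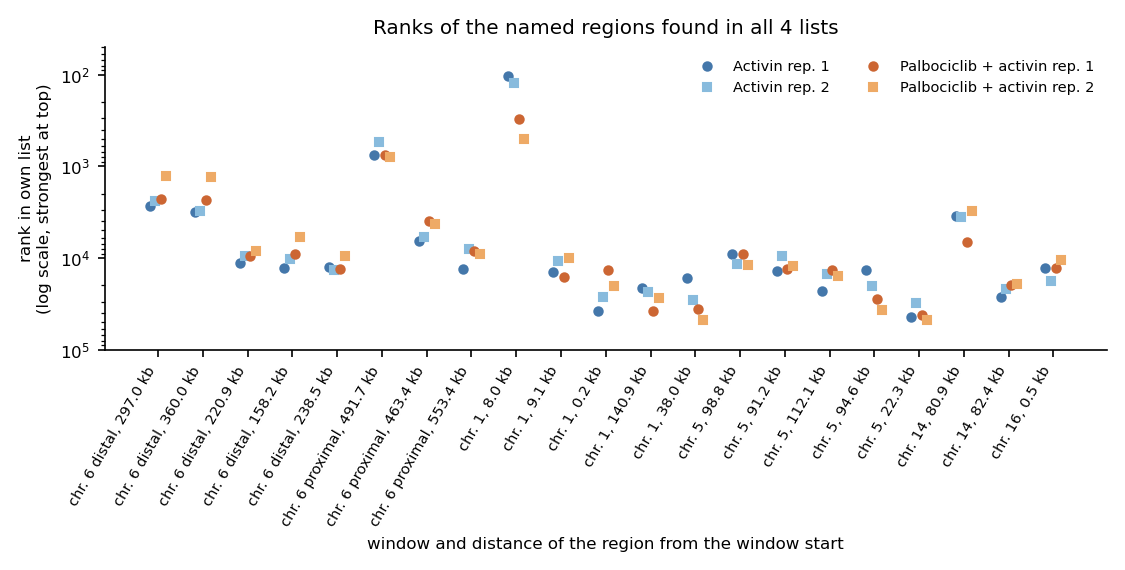
Rank in its own list (log scale, strongest at the top) of each named region that was found in all 4 lists, labelled by window and distance from the window start. The chromosome 1 region at 8.0 kb and the proximal chromosome 6 region at 491.7 kb are the 2 regions within the first 1000 of each list.

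Apart from these few, window summits ranked like those of the whole list. Their median rank stood at 48.6% and 43.7% of the list length with activin and at 48.5% and 41.7% with palbociclib, where 50% is the middle of any list. The mean was 46.1% ± 3.5 with activin and 45.1% ± 4.8 with palbociclib (SD, n = 2, exact permutation p = 0.667). The strongest 10 percent of each list contributed 5 and 5 window summits with activin and 5 and 8 with palbociclib, or 6.76%, 7.94%, 5.38% and 11.8%. The window on chromosome 16 was the highest in median rank in all lists but activin replicate 2, at 31.3%, 37.4%, 24.3% and 30.3% of the list length. There the distal window stood at 36.9%. None of the chromosome 5 summits was within the strongest 10 percent of its list.

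Neighbouring summits of a list lay a median of 3965 and 6270 bp apart with activin, and 6076 and 6109 bp with palbociclib. The groups overlapped (5118 ± 1630 and 6092 ± 23 bp, SD, n = 2, exact permutation p = 1). Over the genome the medians were 7300 and 5666, and 5155 and 3682 bp. Spacing was shorter than in the genome in activin replicate 1 only, although the windows were denser in all 4 lists. The measures differ, since window distances never cross a window border and those of the genome run along whole chromosomes. Distances of at most 1000 bp made up 16 of 68 pairs (23.5%, Clopper-Pearson interval 14.1 to 35.4) and 13 of 57 (22.8%, 12.7 to 35.8) with activin. With palbociclib they made up 18 of 87 (20.7%, 12.7 to 30.7) and 12 of 62 (19.4%, 10.4 to 31.4). The genome had 23.5%, 23.8%, 22.8% and 27.2%, within each interval. These intervals take each pair as independent and cover counting error only, so they do not show equal shares. Distances of at most 500 bp were rarer in the windows in all 4 lists, at 2 of 68, 1 of 57, 5 of 87 and 3 of 62 pairs (2.94%, 1.75%, 5.75% and 4.84%). The genome had 7.91%, 7.29%, 6.21% and 8.87% of pairs at that limit. The window shares at 500 bp rest on 1 to 5 pairs per list, and the difference was not tested. The closest pairs were 470, 336, 324 and 305 bp apart.

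**Figure D5:**
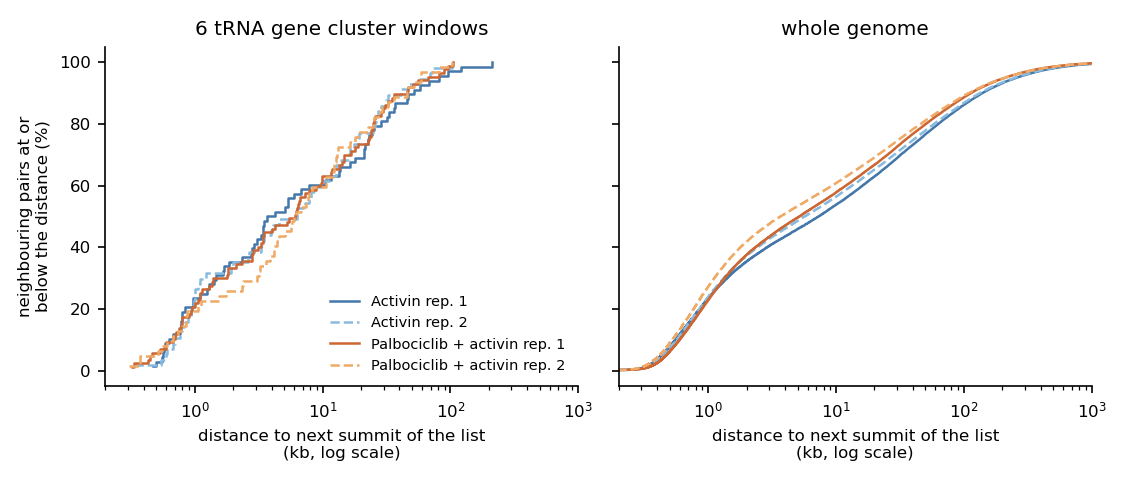
Cumulative share (%) of neighbouring summit pairs by their distance in kb (log scale), for the windows (left) and the genome (right), with 1 line per library. About the same share of pairs lies within 1 kb in both panels, at 19.4% to 23.5% in the windows and 22.8% to 27.2% in the genome. Window distances do not reach beyond 210.7 kb, and they are limited by the length of the window.

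Stretches without a summit in any list took up much of the smaller windows. On chromosome 16 the longest ran for 31.5 kb, or 70.0% of the window. On chromosome 14 it ran for 41.6 kb (46.3%) and on chromosome 5 for 46.0 kb (35.4%). In the distal window the longest stretch between summits ran for 46.3 kb. The empty end of that window, which includes its last 100 kb, was longer. Stretches between a summit and a window border were not counted among these values. In the proximal window the longest stretch ran for 105 kb. On chromosome 1 it ran for 95.7 kb, from 161397989 to 161493704, or 39.9% of the window. Of all distances between neighbouring regions of the genome, 6.64% were at least as long as this one. For the proximal stretch it was 5.94%, and for the stretches between summits in the other windows 13.2% to 17.2%. The longest stretch between summits of a window is set here against all single distances, so these shares do not tell whether it is unusual. RefSeq places the repeated order of 5 tRNA genes between CFAP126 and FCGR3B, the genes chosen to bracket the chromosome 1 window. Whether the empty stretch of that window covers the repeated order was not tested. Reads from near-identical gene copies may not be placed at 1 position, and how the authors treated such reads is not given in the sources used here.

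Other regions lay next to each other, though no more often than in the genome. Joining regions at most 1000 bp apart gave 12 runs of at least 3 regions, a rule chosen after the positions were seen. They held 110 (36.9%) of the window summits, and runs made the same way held 45.3% of the summits of the genome. Of their 55 regions, 9 (16.4%) were found in all 4 libraries and 29 (52.7%) in 1 library, against 15.8% and 49.5% in the runs of the genome. The longest run, at 28863373 to 28868405 in the proximal window, held 11 regions over 5.03 kb. The lists had 5, 5, 4 and 5 summits in it. Of the 11 regions, 1 was found in all lists and 7 in 1, and 12 of the 19 summits lay in regions of more than 1 library. In the distal window the run at 26599727 to 26602921 held 7 regions, with 3, 2, 5 and 3 summits, 1 region of all 4 libraries and 5 of 1 library. On chromosome 16 the run at 3207171 to 3209953 held 6 regions, with 3, 3, 3 and 2 summits, 0 regions of all 4 libraries and 8 of 11 summits in regions of more than 1. The files give 1 position per summit and no peak width, so whether these are separate sites or 1 broad stretch was not tested.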

How the data were processed

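Chromatin immunoprecipitated with an anti-SMAD2 antibody from T47D cells was sequenced in 4 libraries with deposited summit lists. The submitters' processing notes name build hg19 and the tools MACS2 2.0.9, Bowtie 1.1.0 and Picard. For read filters and reads with several positions, the steps were not given in the sources used here. The authors deposited 1 list of single-base summits per library, with a score read as −log10 q against the input, since the lowest score is 1.31 and a q of 0.05 gives 1.30. Sequencing depth is unknown.

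Positions were made 1-based and summits on chromosomes 1 to 22 and X kept. Ranks were taken by score within a list. The windows, lists and rules were chosen with earlier results of these data known. Named regions are, per window, up to 5 shared by the 4 libraries, in order of their worst rank, and every region of 1 treatment only, up to 6 per group. Group values are means ± SD over 2 libraries, tested by exact two-sided permutation. Alternatives changed the score minimum, list length, window borders, chaining gap and libraries. The code for chaining and overlap was run on simulated data with known recurrence. The simulated sites lay far apart with scatter smaller than the chaining gap. The run thus checks the code only, and not how chaining treats runs of close summits. Python 3.11.15, numpy 2.4.6, pandas 2.3.3, scipy 1.17.1 and matplotlib 3.10.9 were used. Gene names and order come from RefSeq GRCh38.p14. Sequences and motifs are not reported, because no genome on the files' build was used.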

Additional observations from a re-analysis of the deposited data

How the results depend on the processing

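Of 80 alternative values, 48 kept their direction or stayed within 1.5 times the main value. The log2 difference in summits (0.23) was −0.011 to 0.44 when each library was left out, turning without palbociclib replicate 1 (−0.011), and 0 at equal list lengths (each list's highest 51535 summits). The difference in list share (−0.0039 percentage points) was 0 at equal lengths, 0.025 in the highest 10000 summits and −0.026 to 0.018 when each library was left out, positive without activin replicate 1 (0.0099) and without palbociclib replicate 2 (0.018). The difference in median rank (−0.98 percentage points) was 3.01 at equal lengths, 23.9 in the highest 10000 and −4.39 to 2.42 when each library was left out, positive without activin replicate 1 (1.49) and without palbociclib replicate 2 (2.42). The difference in median spacing (975 bp) was −18.8 bp with a score of at least 5, −143 bp in the upper 5 of 10 score classes and −177.5 to 2127.5 bp when each library was left out, negative without activin replicate 1. The cause of these turns was not tested. Regions of all 4 libraries (29) numbered 6 in the highest 10000 and 55 in windows widened by 50 kb, which cover more sequence. Regions of palbociclib only (4) numbered 1 at equal lengths, 2 in the highest 10000, 8 in widened windows and 10 to 30 when each library was left out. Regions of activin only (3) numbered 0, 8 and 4 to 19 in the last 3 of these settings, and 1 with a chaining gap of 500 or 1000 bp. Fewer libraries make either criterion easier to meet, so these counts rise by construction. Leaving out activin replicate 1 gave 14 palbociclib-only and 19 activin-only regions, and leaving out activin replicate 2 gave 10 and 14. Leaving out palbociclib replicate 1 gave 17 and 7, and leaving out palbociclib replicate 2 gave 30 and 4. With the replicate block, which compares libraries of the same number, the log2 difference in summits was 0.22, and the mean counts were 48 shared, 32 palbociclib-only and 21.5 activin-only regions per pair. Over the 29 regions of all 4 libraries, deviations of same-numbered libraries in log2 rank correlated at 0.047. This leaves out the regions found in replicate 1 libraries alone, so it does not tell whether the numbers pair the libraries. The lowest permutation p in any setting was 0.333. Motifs and sequences, planned for a genome on hg19, were not run. Summit counts also vary with read depth, which is unknown.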
